A study of Homo sapiens with 12 samples.

Results

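The variants described here place a glycine codon directly before a stop codon in a reporter for nonsense-mediated mRNA decay (NMD). Each variant has a window of 10 bases, made of 6 random bases, a stop codon or the tryptophan codon TGG at bases 7 to 9, and 1 following base. A variant is a member when bases 4 to 6 code for glycine, bases 7 to 9 are a stop codon and no stop codon lies at bases 1 to 3 or 4 to 6, so the members were chosen by sequence and not by any measured value. The EJC-independent reporter lists 1299 members among 41955 variants, and the EJC-enhanced reporter lists 1807 among 51306, with 1068 members listed for both. The same contexts with TGG at bases 7 to 9 are the controls, 508 and 762 variants.

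Both libraries were carried by HEK293T cells, a human embryonic kidney line labelled as wild type, with the reporter at a single genomic location reached by Cre-Lox recombination. The 4 groups are the EJC-independent library with DMSO, the vehicle, the same library with 0.5 µM SMG1i, an inhibitor of the NMD kinase SMG1, and the EJC-enhanced library with each of these, all for 24 hours. Each group has 3 replicate libraries, and the labels do not say whether these came from separate cultures. Each deposited table holds a single comparison of SMG1i with DMSO for a variant, and library values are not part of it. The response used below is the deposited log2 fold change with its sign reversed, read as more RNA under SMG1i when positive, because the tables do not name the numerator and the stop variants are negative as deposited. With the other numerator every sign below would turn.

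As background, translation ends when a stop codon enters the ribosomal A site and release factor eRF1 cuts the bond between the finished peptide and the tRNA in the P site. The last sense codon before the stop codon sets which amino acid and which tRNA share that bond. Glycine, whose side chain is a single hydrogen, is the smallest amino acid. In NMD the helicase UPF1 is phosphorylated by SMG1 on messages whose translation ended early, and an exon junction complex (EJC) left downstream of the stop codon strengthens this decay. The title of the series names the rate of peptidyl-tRNA hydrolysis, the step at which the last amino acid leaves its tRNA, and the labels set TGG as the control without NMD.

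The windows below show the comparison on 1 context, in which the penultimate codon codes for proline, the stop codon is TGA and the following base is C. It was chosen because its 4 glycine codons, before TGA and before TGG, are all deeply counted in the EJC-independent reporter. Each window is written 5′ to 3′ with the last codon in capitals.
glycine codon GGA before TGA: cccGGAtgac
glycine codon GGC before TGA: cccGGCtgac
glycine codon GGG before TGA: cccGGGtgac
glycine codon GGT before TGA: cccGGTtgac
glycine codon GGC before TGG: cccGGCtggc
serine codon AGC before TGA: cccAGCtgac
arginine codon CGC before TGA: cccCGCtgac
cysteine codon TGC before TGA: cccTGCtgac
aspartate codon GAC before TGA: cccGACtgac
alanine codon GCC before TGA: cccGCCtgac
valine codon GTC before TGA: cccGTCtgac

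In the EJC-independent reporter, the authors' deposited table gives the 4 glycine windows of this set responses of 2.12 (GGA), 2.31 (GGC), 2.03 (GGG) and 2.18 (GGT), with standard errors of 0.16, 0.12, 0.20 and 0.12. Their TGG partners have -0.04, -0.03, -8.5e-05 and -0.18 in the authors' deposited table, so no glycine window before TGA overlaps a glycine window before TGG. The GGC windows before TGA and TGG have mean counts of 2195 and 5826 in the authors' deposited table. The windows that differ from GGC by 1 base of the codon are at 1.94 for serine, 1.84 for arginine, 1.89 for cysteine, 2.13 for aspartate, 1.96 for alanine and 1.98 for valine in the authors' deposited table. All 6 lie below the GGC window, and aspartate, with a standard error of 0.27, is not apart from it. Over all 61 last codons of this context the glycine codons take ranks 3 to 13, against a median of 1.86 and a range from 1.29 (TTA, leucine) to 2.44 (AGT, serine) for the other 57.

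For the same 4 windows, the EJC-enhanced reporter has 2.61 (GGA), 2.04 (GGC), 2.04 (GGG) and 2.36 (GGT) in the authors' deposited table, with standard errors from 0.26 to 0.45. The other 57 last codons have a median of 2.25 there, and the glycine codons take ranks 10 to 53 of 61. The glycine windows are therefore spread through the other codons in this reporter, while their TGG partners stay between -0.19 and 0.23 in the authors' deposited table.

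A second context, chosen the same way in the EJC-enhanced reporter, has serine as penultimate codon, TAA and a following C.
glycine codon GGA before TAA: tccGGAtaac
glycine codon GGC before TAA: tccGGCtaac
glycine codon GGG before TAA: tccGGGtaac
glycine codon GGT before TAA: tccGGTtaac

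For the EJC-enhanced reporter the authors' deposited table gives these 4 windows 2.80 (GGA), 2.39 (GGC), 2.64 (GGG) and 1.74 (GGT), taking ranks 5 to 60 of 61 last codons. For the EJC-independent reporter the authors' deposited table gives them 2.25, 2.30, 1.96 and 2.26, taking ranks 1 to 8, with a median of 1.50 for the other 57 codons. The mean over the 4 glycine windows is 2.20 in the EJC-independent reporter, above the highest other codon at 2.05 (TTG, leucine).

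Over all members with a mean count of 10 or more (1292 of 1299), the mean response in the EJC-independent reporter was 2.13 (4.38-fold, SD 0.69 over variants), beside 1.70 (3.25-fold, SD 0.61) for the 27672 other stop variants. The median was 2.12, with 90% of members between 1.06 and 3.24 and extremes of -0.78 and 5.28. A response above 2 was found for 60.2% of the glycine variants and for 24.2% of the others. The 1798 of 1807 EJC-enhanced members above the same minimum averaged 2.30 (4.93-fold, SD 0.86), beside 2.29 (4.89-fold, SD 0.75) for the 32724 others. There 65.4% of glycine variants and 69.0% of the others exceeded 2, so the 2 distributions largely coincide.

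By the deposited adjusted p at 0.05, the authors' deposited table has 1092 of 1292 members higher under SMG1i in the EJC-independent reporter (84.5%), 0 lower and 200 not called. The background over all 28964 stop variants used is 84.8%, so the share of glycine variants called is at the background although their responses are larger. Of the EJC-enhanced members the authors' deposited table has 1423 of 1798 higher (79.1%) and 0 lower, with a background of 85.7% over 34522. Glycine variants are counted less deeply than others, with a median mean count of 129 against 254 in the EJC-independent and 85.1 against 148 in the EJC-enhanced reporter, and their median standard errors are 0.46 against 0.33 and 0.68 against 0.55. With mean counts of 10 to 50 the EJC-independent shares were 47.6% for glycine and 35.7% for the others. They were 92.9% and 83.5% with 50 to 200, and 99.7% and 99.4% with 200 to 1000. Within these 2 lower bands, glycine variants were thus called more often than the others in that reporter. The EJC-enhanced shares were 54.8% and 53.7%, 87.2% and 88.8%, and 93.9% and 96.6% in the same bands.

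Single variants are noisy, and part of their spread is measured by the deposited standard errors. For the 736 EJC-independent members reaching a mean count of 100, the SD of the response was 0.47 and the root mean square of the standard errors 0.34, which covers 53.6% of the variance. For the other stop variants at that depth the SD was 0.40 and the share 53.1%. Among the 770 EJC-enhanced members at that depth the SD was 0.72 and the share 70.4%, beside 73.7% for the others.

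Glycine was compared with the other last codons inside contexts that share the penultimate codon, the stop codon and base 10. Glycine codons exceeded the mean of the other sense codons in the EJC-independent reporter by 0.44 (1.35-fold, 95% interval 0.39 to 0.48 over 592 contexts, SD 0.56), and in 490 of the 592 contexts. The same difference in the EJC-enhanced reporter was -0.005 (interval -0.05 to 0.04 over 664 contexts, SD 0.61), with 334 contexts above 0. Over the 561 contexts measured in both, the glycine difference was larger in the EJC-independent reporter by 0.42 (interval 0.35 to 0.48), in 400 contexts. These intervals run over sequence contexts in the same libraries and not over cultures, they are not adjusted for the number of comparisons, and "higher" or "lower" below means that such an interval leaves out 0.

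Before TGG the same contrast gave 0.06 (interval -0.02 to 0.14 over 214 contexts) in the EJC-independent and 0.007 (interval -0.06 to 0.07 over 240 contexts) in the EJC-enhanced reporter. Against its own TGG partner, with the same 6 random bases and base 10, a glycine stop variant was higher by 2.08 (interval 2.02 to 2.14, 933 pairs, 913 above 0) in the EJC-independent reporter. The EJC-enhanced variant was higher by 2.23 (interval 2.18 to 2.29, 1580 pairs, 1532 above 0). Stop variants that differ only in the stop codon share the same TGG partner, which these intervals do not take into account. After subtraction of the TGG partners from glycine and other codons alike, the glycine difference was 0.37 (interval 0.29 to 0.45) in the EJC-independent and -0.02 (interval -0.08 to 0.04) in the EJC-enhanced reporter.

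The size of the glycine difference was followed over depth. Among EJC-independent variants it was 0.38 with mean counts of 10 to 50, 0.44 with 50 to 200, 0.47 with 200 to 1000 and 0.39 with 1000 or more, each interval above 0. Among EJC-enhanced variants the same bands gave -0.03, 0.03, 0.11 and -0.03, and the band of 200 to 1000 was higher (interval 0.02 to 0.19, 192 contexts). A minimum of 100 gave 0.09 there (interval 0.02 to 0.15, 395 contexts) and inverse variance weights 0.04 (interval 0.01 to 0.07), so these settings give a small positive difference that the unweighted mean does not.

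The 4 synonymous codons each stood above the non-glycine codons in the EJC-independent reporter. GGC was higher by 0.47 (interval 0.41 to 0.54, 448 contexts), GGG by 0.44 (0.37 to 0.52, 267 contexts), GGA by 0.42 (0.32 to 0.52, 225 contexts) and GGT by 0.39 (0.32 to 0.46, 352 contexts). Set against each other in matched contexts, 0 of the 6 pairs of glycine codons had an interval that leaves out 0. The differences ran from -0.08 (GGA minus GGG, interval -0.25 to 0.09) to 0.09 (GGC minus GGG, interval -0.04 to 0.21). These intervals still allow differences of up to about 0.25 between synonymous codons, and GGC exceeded GGT by 0.08 with inverse variance weights (interval 0.01 to 0.15) and GGG by 0.13 in the median (interval 0.02 to 0.26).

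In the EJC-enhanced reporter GGA, GGC and GGT each lay 0.04 above the non-glycine codons, with intervals across 0, and GGG lay at -0.09 (interval -0.19 to 0.01, 376 contexts). GGG has the lowest mean among the glycine codons, 2.20, which is rank 59 of 61 last codons in that reporter, while it is rank 2 in the EJC-independent reporter. In matched contexts 1 of the 6 pairs passed, GGC above GGG by 0.14 (interval 0.01 to 0.26, 337 contexts). That difference was 0.02 with a minimum count of 50 (interval -0.13 to 0.17), while GGA then exceeded GGG by 0.21 (interval 0.01 to 0.41) and by 0.17 with inverse variance weights. In the median GGG stood below GGT at -0.19 (interval -0.32 to -0.01). GGG variants are also the shallowest glycine variants, with a median mean count of 60.9 against 66.3 for GGA, 86.0 for GGT and 122 for GGC. The part of depth in the GGG value was not tested. Against the matched TGG partners GGG is not the lowest: GGA was higher than its partners by 2.12, GGG by 2.19, GGC by 2.26 and GGT by 2.30.

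Codons that differ from glycine by 1 base were compared next. The codons AGN, CGN and TGN keep the middle G, and the codons GCN and GTN keep the first G, with the third base and the rest of the window held. In the EJC-independent reporter glycine was higher than each of these groups: by 0.41 than AGN (serine and arginine), by 0.36 than CGN (arginine) and by 0.59 than TGN (cysteine and tryptophan). It was higher by 0.43 than GCN (alanine) and by 0.38 than GTN (valine). Each of these rests on 789 to 1135 matched contexts, and the intervals lie between 0.31 and 0.64. Codon by codon, 23 of 23 single-base changes had an interval above 0, from 0.24 (GGA against AGA) to 0.62 (GGC against TGC).

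With the EJC-enhanced reporter 1 of these groups differed, with glycine above AGN by 0.13 (interval 0.06 to 0.19, 1237 contexts). The differences from CGN, TGN, GCN and GTN lay between -0.01 and 0.03. Codon by codon, 2 of 23 changes were above 0 (GGA over CGA by 0.14, GGG over AGG by 0.22) and 2 below (GGG against TGG as last codon at -0.14, GGG against GTG at -0.18). With a minimum count of 50 the difference from AGN no longer passed, at 0.07 (interval -0.01 to 0.14). Glycine then exceeded CGN by 0.09 (interval 0.04 to 0.15) and GCN by 0.06 (interval 0.01 to 0.12).

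Glycine was also set beside threonine and tyrosine, the amino acids nearest to it and farthest below it in the EJC-independent reporter, with the third base matched. As these 2 were chosen by their EJC-independent response, their values there only describe the choice: GGN minus ACN (threonine) was 0.05 over 1128 contexts, and GGN minus TAN (tyrosine, since the other TAN codons are stop codons) was 0.72 over 667 contexts. In the EJC-enhanced libraries, which the choice did not use, the differences were -0.02 (interval -0.07 to 0.03, 1674 contexts) and 0.01 (interval -0.05 to 0.08, 977 contexts). The tyrosine codons TAC and TAT take ranks 20 and 31 of 61 last codons there, against 59 and 61 in the EJC-independent reporter. In the EJC-independent reporter the threonine codons take ranks 4 (ACT), 5 (ACG), 6 (ACC) and 8 (ACA), beside ranks 1, 2, 3 and 7 for the glycine codons. The high response there is therefore shared by threonine and not particular to glycine.

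The glycine difference was present before each stop codon. It was, in the EJC-independent reporter, 0.44 before TAA (interval 0.37 to 0.50), 0.45 before TAG (0.36 to 0.54) and 0.42 before TGA (0.34 to 0.50). The mean responses of glycine variants were 2.09, 2.04 and 2.26, in the same order. Between stop codons in matched glycine contexts, TGA exceeded TAG by 0.20 (interval 0.08 to 0.32, 255 contexts) and TAA by 0.16 (interval 0.06 to 0.26, 274 contexts). TAA minus TAG was 0.07 (interval -0.04 to 0.19). The same steps among the other last codons were 0.20, 0.15 and 0.05, and glycine minus others differed by -0.01, 0.01 and 0.00, each interval across 0.

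In the EJC-enhanced reporter the glycine difference was 0.01 before TAA, 0.01 before TAG and -0.04 before TGA, each interval across 0. Among glycine contexts TAA exceeded TAG by 0.11 (interval 0.00 to 0.21, 452 contexts), a value that falls to 0.04 in the median (interval -0.05 to 0.19). The same step among the other last codons was 0.04 (interval 0.02 to 0.06), and glycine minus others was 0.06 (interval -0.08 to 0.20). TGA minus TAG was -0.03 in glycine contexts (interval -0.14 to 0.07) and 0.04 among the others (interval 0.02 to 0.06). In glycine contexts TGA minus TAA was -0.05 (interval -0.15 to 0.05), and TGA was lower at -0.14 with a minimum count of 50 (interval -0.25 to -0.02). TGA thus led among EJC-independent glycine variants and not among EJC-enhanced ones, a difference that was not tested.

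The base after the stop codon was compared among glycine variants over the 3 stop codons together and after each one. Over the stop codons together, A stood at 0.00 relative to the other bases in matched glycine contexts of the EJC-independent reporter, C at 0.01, G at 0.08 and T at -0.08, each interval across 0. After TAA alone, T was lower at -0.17 (interval -0.32 to -0.02, 102 contexts), the 1 split by stop codon and base that passed in glycine contexts of either reporter. Among the other last codons A was higher by 0.08 and C lower at -0.06. The step for A in glycine minus that in others was -0.05 (interval -0.19 to 0.08) for C 0.02 (interval -0.07 to 0.12), for G 0.11 (interval -0.03 to 0.25) and for T -0.07 (interval -0.21 to 0.06). With a minimum count of 50 the step for A was -0.16 (interval -0.28 to -0.05, 85 contexts) and that for C 0.11 (interval 0.03 to 0.19, 116 contexts), so these 2 contrasts pass only at that minimum among the settings run. The 4 bases of the EJC-enhanced reporter stood at 0.05 (A), -0.00 (C), -0.04 (G) and -0.01 (T) in glycine contexts, each interval across 0. By base, the glycine difference from other codons in the EJC-independent reporter was 0.39 with A, 0.49 with C, 0.42 with G and 0.43 with T.

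Splitting the members by codon, stop codon and base 10 at once gives 48 combinations, each with 10 to 50 variants in the EJC-independent reporter. All 48 had a mean above the other last codons with the same stop codon and base, and 10 of the 12 highest had TGA. The highest were GGC TGA G at 2.37 ± 0.19 (SE, 25 variants), GGG TGA C at 2.37 ± 0.11 (39 variants) and GGA TAA A at 2.37 ± 0.20 (10 variants). The lowest were GGA TAG T at 1.89 ± 0.34 (18 variants), GGT TAG C at 1.92 ± 0.12 (36 variants) and GGG TAA T at 1.94 ± 0.11 (25 variants). The SD of the 48 means, 0.13, is close to the median standard error of a mean, 0.12.

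Of the 48 EJC-enhanced combinations 25 lay above the other last codons. The SD of these 48 means, 0.15, is close to the median standard error of a mean there, 0.14. The highest were GGA TGA T at 2.61 ± 0.11 (SE, 33 variants), GGT TAA A at 2.58 ± 0.14 (39 variants) and GGC TAG A at 2.56 ± 0.13 (43 variants). The lowest were GGG TAG A at 1.83 ± 0.21 (26 variants), GGT TAG T at 2.04 ± 0.14 (43 variants) and GGG TGA T at 2.06 ± 0.16 (35 variants), and GGG TAG A has the lowest depth of these, with a median mean count of 31.5.

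GGG followed by TAA or TGA and then G spells GGTAAG or GGTGAG across the junction, letters that resemble the start of an intron. In matched contexts, a base 10 of G minus the other bases gave 0.03 after GGG (interval -0.27 to 0.33, 25 contexts) in the EJC-independent reporter and 0.02 (interval -0.23 to 0.27, 46 contexts) in the EJC-enhanced reporter. The same step after GGA was 0.02 and -0.37 (interval -0.70 to -0.05, 46 contexts), after GGC 0.21 and 0.09, and after GGT -0.05 and -0.09. With a minimum count of 50, the GGG step in the EJC-enhanced reporter rested on 20 contexts and was 0.30 (interval 0.01 to 0.60).

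The penultimate codon, at bases 1 to 3, codes for the amino acid next to glycine in the chain. The mean response of EJC-independent glycine variants was highest after tyrosine, 2.47 ± 0.11 (SE, 41 variants), isoleucine, 2.43 ± 0.14 (43 variants), tryptophan, 2.30 ± 0.19 (12 variants), and glycine itself, 2.30 ± 0.10 (49 variants). It was lowest after methionine, 1.92 ± 0.12 (11 variants), asparagine, 1.93 ± 0.13 (28 variants), glutamine, 1.99 ± 0.09 (41 variants), and valine, 2.02 ± 0.11 (60 variants). The span over the 20 penultimate amino acids was 0.55 in glycine variants and 0.31 in the others, with a median standard error of 0.10 per glycine mean. Across the 20, glycine means and those of the other last codons had Pearson r 0.32 and Spearman rho 0.29, a description of 20 points from the same libraries.

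Glycine stood above the other last codons after each of the 20 penultimate amino acids in the EJC-independent reporter, by 0.16 to 0.78. For the 18 with at least 10 contexts, 14 had an interval above 0 and 0 below. The largest was after tyrosine, 0.78 (interval 0.51 to 1.04, 22 of 22 contexts above 0), followed by isoleucine at 0.67 (interval 0.34 to 1.01, 23 contexts) among those 18. Valine gave the smallest, 0.16 (interval -0.07 to 0.39, 35 contexts), which became 0.32 with a minimum count of 50 (interval 0.06 to 0.57) and 0.36 with inverse variance weights. Against the mean of the other penultimate amino acids, the glycine difference was larger after tyrosine by 0.35 (interval 0.09 to 0.62) and smaller after valine at -0.29 (interval -0.53 to -0.06). Tyrosine and valine are the extremes of those 18, so intervals that leave out 0 can come from that choice. The error of the subtracted mean is not part of these intervals. They therefore cannot decide whether tyrosine or valine differs from the rest, and the valine difference itself rose in the settings above. Among last amino acids with at least 10 variants, glycine ranked first after 13 of the 20 penultimate amino acids, and its lowest rank was 4.

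Before TGG, glycine after tyrosine stood at -0.06 (20 variants) and after isoleucine at 0.12 (20 variants). Both TGG levels lie near 0, unlike the levels before a stop codon. A glycine followed by a glycine gave 2.30 before a stop codon and -0.08 before TGG (15 variants), and the glycine difference from other last codons after a penultimate glycine was 0.54 (interval 0.37 to 0.70, 32 contexts).

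The highest means of EJC-enhanced glycine variants were after glutamine, 2.51 ± 0.13 (SE, 56 variants), tyrosine, 2.45 ± 0.09 (61 variants), proline, 2.40 ± 0.05 (180 variants), and histidine, 2.37 ± 0.09 (84 variants). The lowest were after lysine, 1.99 ± 0.23 (25 variants), tryptophan, 2.07 ± 0.20 (25 variants), methionine, 2.12 ± 0.25 (20 variants), and glutamate, 2.15 ± 0.29 (21 variants), and glycine gave 2.23 ± 0.12 (84 variants). Of the 20, 10 were above the other last codons, 1 with an interval above 0 (glutamine, 0.25, interval 0.09 to 0.41) and 1 with an interval below (arginine, -0.21, interval -0.38 to -0.04). Arginine moved to -0.07 with a minimum count of 50 and to -0.03 with inverse variance weights, with intervals across 0. Glycine ranked first after 0 of the 20 penultimate amino acids. The 20 glycine means of both reporters had Pearson r 0.11 and Spearman rho 0.01.

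The single members with the highest response among those reaching a mean count of 100 are shown with the lowest, to give the range that the members span.
highest in the EJC-independent reporter, after tyrosine: tacGGGtgac
next highest in the EJC-independent reporter, after threonine: accGGCtagg
lowest in the EJC-independent reporter, after serine: tctGGTtaag
next lowest in the EJC-independent reporter, after serine: tcaGGCtaga
highest in the EJC-enhanced reporter, after glycine: ggaGGCtaat

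The authors' deposited table gives tacGGGtgac a response of 4.09 ± 0.44 (standard error, mean count 140, adjusted p 1.4e-19) in the EJC-independent reporter and 2.60 ± 0.44 in the EJC-enhanced reporter. It gives accGGCtagg 4.03 ± 0.45 and 2.38 ± 0.52, again from the authors' deposited table. The other 3 of the 5 highest in the EJC-independent reporter, agcGGCtagt, ttcGGGtgac and cttGGTtaat, lie at 3.81, 3.73 and 3.65 in the authors' deposited table, and at 1.83, 2.13 and 2.18 in the EJC-enhanced reporter. All 5 thus lie between the quartiles of the members in the other reporter, 1.79 and 2.81.

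At the low end the authors' deposited table gives tctGGTtaag -0.05 ± 0.51 (mean count 102, adjusted p 0.94) and tcaGGCtaga 0.39 ± 0.58 (mean count 114, adjusted p 0.58) in the EJC-independent reporter. The next 3, tgcGGGtaat, acaGGTtagc and tcgGGCtaat, are at 0.51, 0.61 and 0.73 with adjusted p from 0.18 to 0.40 in the authors' deposited table. The same 5 windows are at 2.71, 1.84, 2.34, 2.33 and 2.90 in the authors' deposited table of the other reporter, so none is low in both.

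For the EJC-enhanced library the authors' deposited table has its highest members at 5.37 ± 0.68 (ggaGGCtaat), 5.29 ± 0.87 (tcgGGAtaac), 5.18 ± 0.87 (gcaGGTtagg), 4.96 ± 0.61 (tcaGGCtagt) and 4.82 ± 1.44 (cacGGTtgag). Its lowest are ttgGGCtaaa at -0.71 ± 1.67, aggGGCtgat at -0.46 ± 1.83, cctGGGtaac at 0.09 ± 0.80, acaGGAtaac at 0.11 ± 0.75 and ttcGGGtgat at 0.23 ± 1.82 in the authors' deposited table. Of these 5, the p-value is blank for ttgGGCtaaa, cctGGGtaac and ttcGGGtgat. The same 5 windows are at 3.57, 1.81, 1.82, 2.74 and 2.30 in the authors' deposited table for EJC-independent windows, so none of them is low there.

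The most deeply counted member of each codon was read singly. In the EJC-independent reporter the authors' deposited table gives ccgGGAtaat 2.14 ± 0.10 (mean count 2304), accGGCtgac 2.59 ± 0.07 (mean count 7849), atcGGGtaac 2.00 ± 0.07 (mean count 7564) and cccGGTtgag 2.21 ± 0.10 (mean count 4718). All 4 lie above the mean of the other stop variants, 1.70, and accGGCtgac lies above the other 3 by more than the standard errors. The deepest EJC-enhanced members are cacGGAtgac at 3.78 ± 0.60, cccGGCtaac at 2.25 ± 0.30, atcGGGtaac at 4.20 ± 1.11 and cccGGTtgag at 2.15 ± 0.65 in the authors' deposited table, with mean counts from 527 to 1937. Greater depth did not always give a smaller standard error there, as the authors' deposited table gives the shallower cccGGGtgac a standard error of 0.45 against 1.11 for atcGGGtaac.

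Members measured in both reporters were also compared one by one, which sets 2 separately scaled tables beside each other. Over 1061 shared members the EJC-enhanced response was larger by 0.27 (interval 0.20 to 0.33), and larger in 61.4% of them. Over 25110 other shared stop variants it was larger by 0.63 (interval 0.62 to 0.64), in 80.0%. Across the 1061 members the responses of the 2 reporters had Pearson r -0.01 and Spearman rho -0.01, and where both mean counts reach 100 (474 members) r was -0.06. The 25110 other stop variants had r 0.007 and rho 0.007, and r 0.002 at that depth (16080 variants). A correlation near 0 is therefore not particular to glycine. These points share the window and not the libraries.

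Fewer of the possible glycine windows are listed than of the other stop windows in both tables. The EJC-independent table lists 44.4% of the 2928 possible members against 66.6% for the other stop variants, and in the EJC-enhanced reporter 61.7% are listed against 78.6%. By codon, 61.5% of possible GGC variants, 48.4% of GGT, 36.6% of GGG and 31.0% of GGA are listed in the EJC-independent table, and 79.0%, 65.7%, 51.6% and 50.5% in the EJC-enhanced table. By base 10, C is best represented, with 62.8% and 79.8% listed. The median count of GGC ranks 40 of 61 last codons and that of GGG ranks 54 in the EJC-independent table.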

How the data were processed

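RNA from 12 libraries of HEK293T cells was compared by the authors, SMG1i against DMSO, per reporter, without a value per library in the tables. The submitters' processing notes name DESeq and DESeq2; for versions, read processing and filters the sources used here give nothing. Per the file headers, the authors deposited for each variant the mean of normalized counts (a signal they scaled), the log2 fold change and its log2 standard error. They also deposited a score (the Wald statistic) and p-values, raw and adjusted. The score equals the log2 fold change over its standard error, and Benjamini-Hochberg adjustment over each table returns the deposited adjusted p-values. The depth of single libraries is unknown.

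From these values, Python 3.11.15 with numpy 2.4.6, pandas 2.3.3 and scipy 1.17.1 computed matched differences. Windows reaching a mean count of 10 and free of a stop codon at bases 1 to 6 were used (41740 and 51167 variants pass the count). Within each context, glycine was averaged and the mean of the compared codons subtracted. Intervals are the mean ± 1.96 standard errors over at least 10 contexts, with no p-value of own. With inverse variance weights, the weighted mean and a standard error computed with the same weights were used. Intervals of medians were taken from the ordered context values by the binomial distribution. For base 10, the other bases listed in the context served as comparison. The code was tested on simulated data. Alternatives were count minimums of 0, 50 and 100, weights, medians, TGG subtraction, each stop codon, each codon left out, a G or C term and the junction letters. Bands of counts and leaving out blank p-values were chosen after seeing the data.

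Named contexts are the 4 codons, stop codons and bases at 10, the 3 highest and lowest of the 48 combinations, the 4 highest and lowest penultimate amino acids and glycine, the 5 highest and lowest single variants with a count of 100 or more, and the deepest variants and sets. The members, lists and comparisons were chosen with earlier results of these data known. The result for 1 group of neighbouring codons is not reported here.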

Additional observations from a re-analysis of the deposited data

Results flagged for a closer look

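The glycine difference from other last codons differed between the reporters in the contexts measured in both, larger in the EJC-independent reporter by 0.42 (interval 0.35 to 0.48 over 561 contexts). By stop codon the gap was 0.38 for TAA, 0.42 for TAG and 0.46 for TGA. By base 10 it was 0.36 for A, 0.49 for C, 0.34 for G and 0.46 for T. By codon it was 0.27 for GGA, 0.43 for GGC, 0.42 for GGG and 0.22 for GGT. Each of these intervals lay above 0. In the shared contexts the EJC-enhanced difference itself was 0.17 for GGA (168 contexts), 0.18 for GGT (287 contexts), 0.05 for GGC and -0.01 for GGG. Over all EJC-enhanced contexts GGA and GGT each lay at 0.04, so their smaller gaps go with larger EJC-enhanced values in the shared contexts. Why these contexts differ was not tested.

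By penultimate amino acid, the gap was, with at least 10 contexts, widest after cysteine, 0.74 (interval 0.41 to 1.07, 21 contexts), tyrosine, 0.68, isoleucine, 0.62, and arginine, 0.60. It was 0.52 after glycine, 0.52 after histidine, 0.51 after aspartate, 0.41 after serine, 0.35 after leucine, 0.35 after alanine, 0.33 after proline and 0.29 after phenylalanine. After glutamine (0.22), threonine (0.20), valine (0.25) and asparagine (0.15) the interval crossed 0, and after glutamate, lysine, methionine and tryptophan fewer than 10 contexts were shared.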

How the results depend on the processing

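No paired analysis was possible because the tables hold no value per library; for the same reason no replicate could be left out. The EJC-independent glycine difference stayed between 0.37 and 0.47 with every interval above 0 over 20 alternatives, the difference between reporters between 0.36 and 0.46 over 16, and glycine stop minus TGG between 1.99 and 2.21 (EJC-independent) and 2.21 and 2.30 (EJC-enhanced) over 15 each. The EJC-enhanced glycine difference, -0.005, was above 0 with a minimum count of 100 (0.087), inverse variance weights (0.043) and counts of 200 to 1000 (0.107). The GGG junction step in the EJC-enhanced reporter passed with a minimum of 50 (0.30, 20 contexts). In the EJC-independent reporter, 1 pair of glycine codons passed with weights and 1 in the median, against 0, and with a minimum of 50 the base 10 step of glycine minus others passed for 1 base above and 1 below 0, against 0 and 0. In the EJC-enhanced reporter the median left 0 pairs of codons above 0 and 1 below, and 0 pairs of stop codons above. With a minimum of 50, and with weights, 1 pair of stop codons was below 0, and with that minimum 1 pair in glycine minus others. There, 2 penultimate amino acids were above 0 with weights, 0 were below with a minimum of 50, weights or the median, and 2 of the 6 neighbour groups were above with a minimum of 50 or weights. The causes were not tested. Single contexts were run only with count minimums of 0 and 50, inverse variance weights and the median. Of these contexts, 31 of 37 (EJC-independent) and 29 of 39 (EJC-enhanced) kept their side of the threshold in those settings, and 0 reversed. The other alternatives were not run on them. Depth limits single variants: median standard errors are 0.46 and 0.68.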

Other observations

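Of the EJC-independent glycine windows with TGG, which carry no stop codon, the authors' deposited table calls 19 of 500 higher and 23 lower under SMG1i, and of the EJC-enhanced ones 24 of 757 higher and 15 lower. The shares called higher, 3.80% and 3.17%, are near those of the other TGG windows in the authors' deposited table, 4.10% and 2.73%. Called lower among the other TGG windows are 391 of 9772 (EJC-independent) and 165 of 12336 (EJC-enhanced) in the authors' deposited table. The deepest of the 19, attGGCtggc (isoleucine, glycine, tryptophan, then C), has a response of 1.41 ± 0.06 at a mean count of 9539 in the authors' deposited table, and 1.67 ± 0.62 in that of the EJC-enhanced reporter at a mean count of 1867. Its partners with TAA, TGA and TAG are at 2.34 ± 0.16, 2.72 ± 0.44 and 1.24 ± 1.28 in the first of these, the authors' deposited table for EJC-independent windows, and the TAG partner, with a mean count of 13.0, is not apart from the TGG window. This window was picked after its values were seen.

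The lowest deep member, tctGGTtaag, is at -0.05 in the authors' deposited table for EJC-independent windows, while its TGG partner, tctGGTtggg, is at 2.59 ± 0.72 (mean count 55.1), the reverse of the usual order. In the EJC-enhanced reporter the authors' deposited table has the usual order, 2.71 ± 0.68 and 0.13 ± 0.36. A TGG window exceeded its stop partner in 20 of 933 pairs of the EJC-independent and 48 of 1580 of the EJC-enhanced reporter, and in 2 of 393 and 3 of 624 pairs with mean counts of 100 or more in both windows. No such count is given here for the other last codons, so these pairs cannot show whether the shares are particular to glycine.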
